A study of Mus musculus with 6 samples.

Results

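The 27 genes described here encode the enzymes that build cholesterol, the proteins that switch those enzymes on and off, and 2 proteins of sterol transport. They were taken by gene symbol, as a list of cholesterol synthesis and SREBP2 target genes, from the 17778 genes measured in mouse colon. The list does not hold every gene of the pathway. All 27 symbols were found. They fall into 20 enzymes, 5 regulators (*Srebf1*, *Srebf2*, *Scap*, *Insig1* and *Insig2*) and 2 transport genes (*Stard4* and *Npc1l1*).

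Colon RNA was sequenced from 3 obesity-prone (OP) and 3 obesity-resistant (OR) mice, each mouse as 1 library. All 6 were male wild-type C57BL/6J mice fed a high-fat diet (HFD) with 60% fat for 16 weeks, up to 21 weeks of age. OP mice came from the 10 with the largest weight gain among 42 mice on the diet and OR mice from the 10 with the smallest, so both groups had the same strain, genotype and diet and differed in weight gain. No mouse on a control diet is part of this comparison. Expression is given as FPKM (fragments for each kilobase of transcript, scaled to 1000000 mapped fragments), which can be compared between genes because it is divided by length. Read totals are not part of these values, so depth is unknown.

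Cholesterol is made from acetyl-CoA. A first series of enzymes, the mevalonate arm, leads to farnesyl diphosphate, and a second, the sterol arm, turns farnesyl diphosphate through squalene and lanosterol into cholesterol. The transcription factor SREBP2, the product of *Srebf2*, is held in the endoplasmic reticulum membrane together with its escort SCAP. When membrane sterol is low, SCAP carries SREBP2 to the Golgi, where proteases release the active factor. When sterol is high, INSIG proteins retain SCAP. In the intestine this pathway runs beside uptake of sterol from the gut lumen, for which NPC1L1 is the transporter in the small intestine.

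SREBP2 binds sterol regulatory elements in the promoters of its targets, usually with the factors NF-Y and SP1 bound nearby. The promoters of 4 enzyme genes that varied widely between the mice are shown here, with matches to such motifs marked in the letters. Each runs 5′ to 3′ on the strand of the gene, from 250 bases before to 50 bases after the transcript start, as given by RefSeq on GRCm38.p6. Capitals mark the sterol regulatory element core (TCACNCCAC) and the NF-Y box (CCAAT, or ATTGG on the opposite strand). Of the 4 promoters, only that of *Hmgcs1* has a match to the core. The regions are chr13:119690101-119690400 on the plus strand for *Hmgcs1*, chr13:8885356-8885655 on the plus strand for *Idi1*, chr5:4104648-4104947 on the minus strand for *Cyp51* and chr8:64733529-64733828 on the minus strand for *Msmo1*.
Hmgcs1: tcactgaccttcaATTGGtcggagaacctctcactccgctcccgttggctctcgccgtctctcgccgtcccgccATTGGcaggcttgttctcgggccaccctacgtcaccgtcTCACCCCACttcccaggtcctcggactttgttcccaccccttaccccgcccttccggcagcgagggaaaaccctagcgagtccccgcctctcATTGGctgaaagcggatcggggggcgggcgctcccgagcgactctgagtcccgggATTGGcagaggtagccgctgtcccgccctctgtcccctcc
Idi1: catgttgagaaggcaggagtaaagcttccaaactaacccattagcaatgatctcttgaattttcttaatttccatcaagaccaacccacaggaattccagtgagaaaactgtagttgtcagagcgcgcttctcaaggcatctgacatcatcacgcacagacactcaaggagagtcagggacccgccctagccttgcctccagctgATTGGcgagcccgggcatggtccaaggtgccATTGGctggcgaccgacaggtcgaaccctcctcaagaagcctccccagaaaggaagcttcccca
Cyp51: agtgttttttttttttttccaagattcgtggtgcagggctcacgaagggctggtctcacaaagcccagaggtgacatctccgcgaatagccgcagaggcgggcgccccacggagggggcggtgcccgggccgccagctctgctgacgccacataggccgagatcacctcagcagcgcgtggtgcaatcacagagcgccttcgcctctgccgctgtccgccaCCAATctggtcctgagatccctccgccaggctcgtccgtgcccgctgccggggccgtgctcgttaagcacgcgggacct
Msmo1: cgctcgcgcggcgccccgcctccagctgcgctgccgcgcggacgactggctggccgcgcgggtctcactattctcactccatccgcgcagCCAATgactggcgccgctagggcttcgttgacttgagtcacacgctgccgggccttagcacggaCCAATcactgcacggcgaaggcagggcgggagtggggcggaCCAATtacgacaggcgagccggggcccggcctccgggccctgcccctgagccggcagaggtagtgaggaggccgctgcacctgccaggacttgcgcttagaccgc

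The 300-base table held 31 promoters for 23 of the 27 genes. *Sqle*, *Fdps*, *Fdft1* and *Stard4* had no entry. Both strands were searched for 3 motifs, and matches to different motifs did not overlap. The sterol regulatory element core was found in 1 of the 31 promoters, that of *Hmgcs1*, where it begins 137 bases before the start. It was found in 1.24% of all 32851 promoters of the table. The NF-Y box was found in 22 of the 31 promoters (71.0%) and for 21 of the 23 genes, against 37.4% of all promoters. In the sequences shown, the *Hmgcs1* promoter has 4 NF-Y boxes, *Msmo1* has 3, *Idi1* has 2 and *Cyp51* has 1. The GC box (GGGCGG), to which SP1 binds, was found in 24 of the 31 promoters (77.4%). That share was 35.7% over the whole table and 60.1% over promoters of the genes tested in this colon data. These are matches of letters in a short window, and binding was not measured. For the sterol regulatory element only 1 core spelling was searched, so elements spelled otherwise were not counted.

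Differences between OP and OR mice were tested by limma-trend on log2(FPKM + 1) in the 13520 genes for which 3 or more mice reached an FPKM of 0.5. The call required a ratio of 1.2 or more (higher) or 0.83 or less (lower) together with a Benjamini-Hochberg q-value below 0.2. Of the 27 genes, 26 were tested and *Npc1l1* was not. None of the 26 was called: 0 were higher and 0 lower in OP mice, where 0% of all genes tested were called higher and 0.0222% (3 genes) lower. The q-values of the 26 genes lay between 0.864 and 0.999. At an unadjusted limma-trend p below 0.05, 1 gene was higher (*Dhcr7*) and 1 was lower (*Lbr*), where 0.503% of all genes tested were higher and 3.53% lower. These were also the only 2 of the 26 whose OP and OR mice did not overlap, where 1.63% of all genes tested had every OP mouse above every OR mouse and 6.81% had every OP mouse below. The fitted change was above 0 in 9 of the 26 genes and below 0 in 17. Over all 13520 genes tested it was above 0 in 4045 and below 0 in 9475. Under median-of-ratios scaling it was above 0 in 18 of the 26 genes and below in 8. Their median log2 fold change OP/OR was −0.04, beside −0.10 over all genes tested. With single mice left out it ranged from −0.25 (without OP 2) to 0.13 (without OR 2), and it was below the median of all genes without OP 2, OR 1 or OR 3. With sample weights it was 0.16, with 17 genes above 0.

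**Figure D1:**
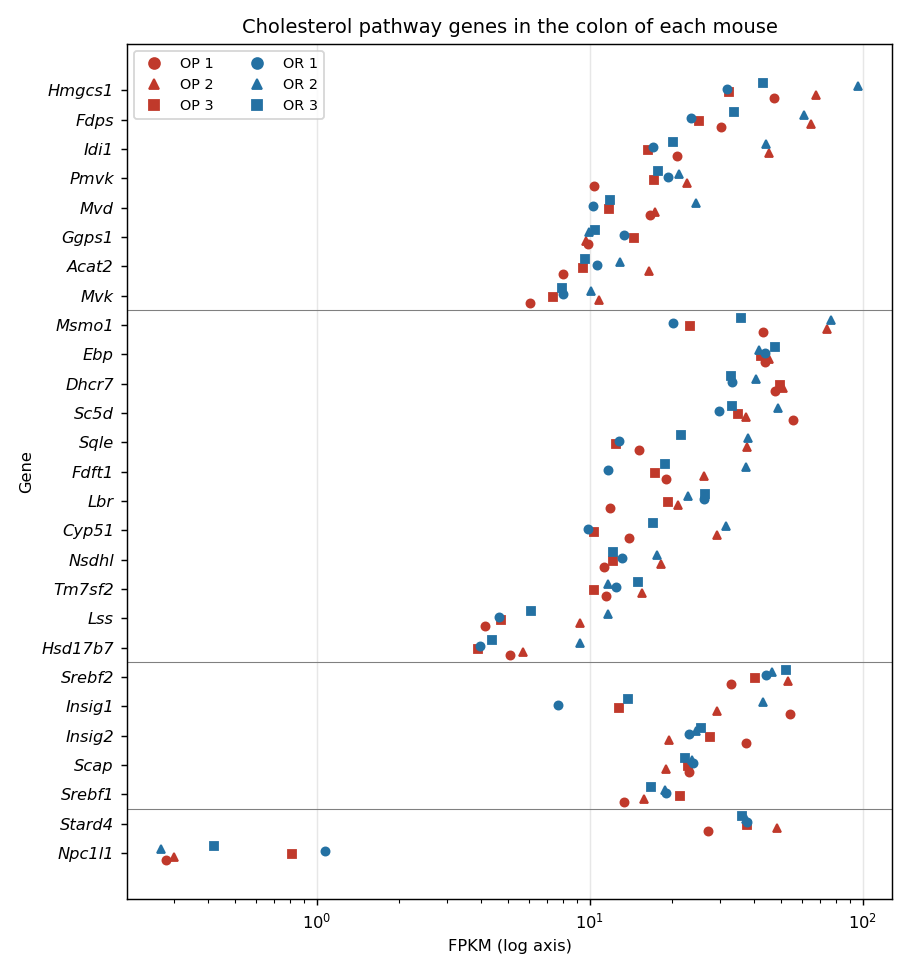
FPKM of the 27 genes in each mouse on a log axis (OP red, OR blue; circle, triangle and square for mice 1, 2 and 3; points of a gene are spread vertically for legibility), with lines between the mevalonate arm, the sterol arm, the regulators and the transport genes. The triangles of OP 2 and OR 2 lie at the right in 14 of the 20 enzymes, and only *Dhcr7* and *Lbr* have separate colours.

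**Figure D2:**
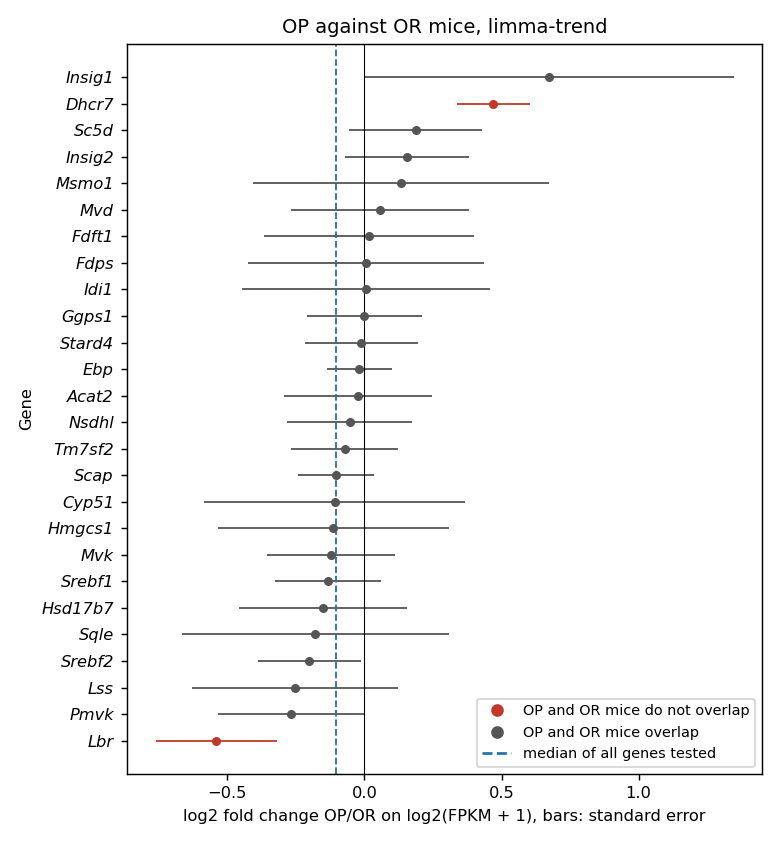
Log2 fold change OP/OR of the 26 genes tested, from limma-trend on log2(FPKM + 1), with bars of 1 standard error from 3 mice in each group. The dashed line is the median of all genes tested (−0.10), and the 2 red points are the genes whose groups do not overlap, *Dhcr7* at 0.47 and *Lbr* at −0.54.

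The 2 genes with separate groups belong to the sterol arm, and they differed in opposite directions. *Dhcr7* encodes 7-dehydrocholesterol reductase, which removes a double bond from the sterol ring to give cholesterol. Its FPKM was 47.73, 51.17 and 49.76 among OP mice and 33.19, 40.73 and 33.02 among OR mice. The lowest OP mouse was above the highest OR mouse, and the OP mice lay close together. Mean FPKM was 49.6 ± 1.73 (SD, n = 3) in OP and 35.6 ± 4.40 (SD, n = 3) in OR mice, a ratio of 1.39. The log2 fold change was 0.47 (standard error 0.13), with an unadjusted p of 0.00847 and a q of 0.864 by limma-trend. The two-sided exact permutation p was 0.1, the smallest that 3 mice against 3 allow. Separate groups of this size always give that value. The groups of *Dhcr7* remained separate after median-of-ratios scaling and after scaling to TPM. With each mouse left out, its fold change was between 0.42 and 0.57 on the log2 scale.

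*Lbr* encodes the lamin B receptor, a protein of the inner nuclear membrane that also carries sterol reductase activity. Its FPKM was 11.86, 21.08 and 19.41 among OP mice and 26.13, 22.99 and 26.40 among OR mice. Every OP mouse was below every OR mouse, although OP 2 and OR 2 were close and OP 1 was far below the rest. The log2 fold change was −0.54 (standard error 0.22), with an unadjusted p of 0.0429 and a q of 0.945 by limma-trend. The exact permutation p was 0.1, which follows from the separate groups and adds nothing to them. Without OP 1 the log2 fold change was −0.30, with an unadjusted limma-trend p of 0.0634. The unadjusted limma-trend p was also above 0.05 without OR 1, OR 2 or OR 3 (0.104, 0.0600 and 0.107). It was below 0.05 without OP 2 or OP 3 (0.0199 and 0.0446). The groups of *Lbr* remained separate after median-of-ratios scaling and after scaling to TPM. *Tm7sf2* encodes an enzyme of the endoplasmic reticulum with the same sterol reductase activity. Its level was 12.4 ± 2.71 FPKM in OP and 13.0 ± 1.73 in OR mice (SD, n = 3). The ratio of *Lbr* to *Tm7sf2* was 1.04, 1.36 and 1.87 among OP mice and 2.10, 1.97 and 1.76 among OR mice. OP 3 lay within the OR range, and the exact permutation p was 0.2.

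The other 18 enzymes overlapped between OP and OR mice. In each of the 18, the highest mouse of a group exceeded the lowest mouse of the same group by a larger factor than the group means differed, in OP and in OR alike. The mevalonate arm begins with *Acat2*, which encodes the thiolase that joins acetyl-CoA units, and *Hmgcs1*, which encodes HMG-CoA synthase. *Hmgcs1* had the highest mean of the 27 genes, 53.0 FPKM over the 6 mice. Its FPKM was 47.34, 67.65 and 32.31 among OP mice and 31.79, 95.77 and 43.06 among OR mice. The lowest and the highest value were both in OR mice. The log2 fold change was −0.11 (standard error 0.42, q = 0.974 by limma-trend). *Acat2* ranged from 7.97 to 16.43 FPKM and also overlapped.

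*Mvk*, *Pmvk* and *Mvd* encode the kinases and the decarboxylase that turn mevalonate into isopentenyl diphosphate. *Mvk* had 8.05 ± 2.47 FPKM in OP and 8.67 ± 1.23 in OR mice (SD, n = 3). *Pmvk* ranged from 10.34 FPKM in OP 1 to 22.71 in OP 2, with the 3 OR mice between 17.84 and 21.25. *Mvd* ranged from 10.26 in OR 1 to 24.54 in OR 2, so its widest gap was within the OR group. *Idi1* encodes the isomerase that interconverts the isoprene building blocks. Its FPKM was 20.86, 45.34 and 16.32 among OP mice and 17.09, 44.36 and 20.18 among OR mice. In each group mouse 2 had more than the other mice by a wide margin, and OP 2 and OR 2 were nearly equal. The log2 fold change of *Idi1* was 0.0046 (standard error 0.45) by limma-trend. *Fdps*, which encodes farnesyl diphosphate synthase, had 40.0 ± 21.5 FPKM in OP and 39.5 ± 19.4 in OR mice (SD, n = 3). *Ggps1* encodes the synthase of geranylgeranyl diphosphate, a product that leaves the sterol pathway to modify proteins, and had 11.4 ± 2.72 and 11.3 ± 1.86 FPKM (SD, n = 3).

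The sterol arm begins with *Fdft1* (squalene synthase), *Sqle* (squalene epoxidase), *Lss* (lanosterol synthase) and *Cyp51* (lanosterol demethylase). *Sqle* had an FPKM of 15.10, 37.75 and 12.50 among OP mice and 12.77, 38.13 and 21.66 among OR mice. *Cyp51* had 13.91, 29.24 and 10.38 among OP mice and 9.87, 31.67 and 17.09 among OR mice. In both genes OP 2 and OR 2 were the highest mice, and they differed from each other by less than from any mouse of their own group. By limma-trend their log2 fold changes were −0.18 (standard error 0.49) and −0.11 (standard error 0.48). *Fdft1* ranged from 11.64 FPKM in OR 1 to 37.21 in OR 2. *Lss* was the lowest of these 4 genes, with 6.02 ± 2.76 FPKM in OP and 7.47 ± 3.71 in OR mice (SD, n = 3).

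*Msmo1*, *Nsdhl* and *Hsd17b7* encode enzymes that remove methyl groups from the sterol ring. *Msmo1* ranged from 20.22 FPKM in OR 1 to 76.74 in OR 2, a factor of 3.80, which was the largest among the enzymes. Its log2 fold change was 0.13 (standard error 0.54) by limma-trend. *Nsdhl* ranged from 11.24 to 18.17 FPKM and *Hsd17b7* from 3.91 to 9.24. *Ebp*, the sterol isomerase, and *Sc5d*, the desaturase that precedes DHCR7 in one branch of the pathway, come near the end. *Ebp* was the steadiest of the 26 genes, with 43.7 ± 1.42 FPKM in OP and 44.4 ± 3.13 in OR mice (SD, n = 3). The spread of *Ebp* within groups on the log2 scale was larger than that of only 3.08% of all genes tested. *Sc5d* had 42.6 ± 11.2 FPKM in OP and 37.3 ± 10.3 in OR mice (SD, n = 3), with OP 1 at 55.38 and OR 2 at 49.08 as its highest mice.

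Most of the enzymes shared an order of mice that did not follow the groups. OP 2 and OR 2 were the highest 2 of the 6 mice in 14 of the 20 enzymes (70.0%), where they were the highest 2 in 4.06% of all genes tested. This pair was singled out after the values had been seen, and the enzymes are measured in the same libraries, so the count is a description. The next most frequent pair, OP 2 and OR 3, was highest in 2 of the 20. The 14 were 7 of the 8 genes of the mevalonate arm, all but *Ggps1*, and 7 of the 12 of the sterol arm (*Fdft1*, *Sqle*, *Lss*, *Cyp51*, *Msmo1*, *Nsdhl* and *Hsd17b7*). In these 14 the highest mouse exceeded the lowest by a factor of 1.62 to 3.80, with a median of 2.76. In the other 6 (*Ggps1*, *Tm7sf2*, *Lbr*, *Ebp*, *Sc5d* and *Dhcr7*) the factor was 1.15 to 2.23, with a median of 1.52. Summed over the 20 enzymes, FPKM was 431, 625 and 375 among OP mice and 356, 668 and 426 among OR mice. The means of these sums were 477 ± 131 and 483 ± 164 (SD, n = 3), so the spread within each group was many times the difference between them.

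**Figure D3:**
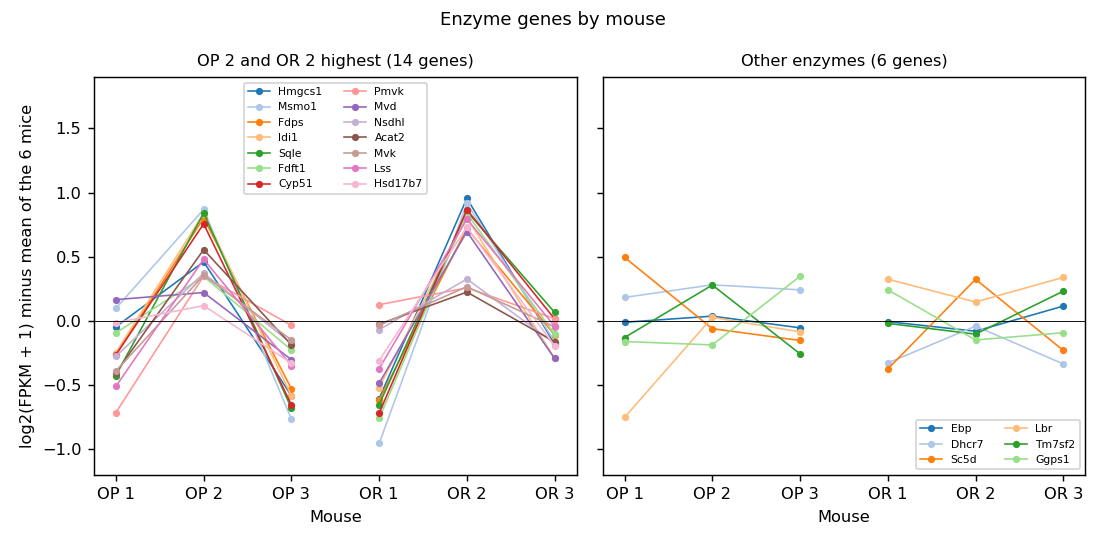
Deviation of each enzyme gene from its 6-mouse mean, in log2(FPKM + 1) units, with 1 line per gene broken between the groups. The 14 genes on the left peak in OP 2 and OR 2, and the 6 genes on the right have no common peak.

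Spread of this size was not common in these libraries. The fold between the highest and the lowest mouse was above 2 in both groups for 8 of the 26 genes tested (30.8%): *Hmgcs1*, *Idi1*, *Fdps*, *Sqle*, *Lss*, *Cyp51*, *Msmo1* and *Insig1*. Over all genes tested the share was 10.2%. With median-of-ratios scaling, OP 2 and OR 2 were the highest pair in 12 of the 20 enzymes, where they were so in 5.49% of all genes. With TPM scaling the count was 14. OP 1 stood apart from the other libraries: it was the lowest mouse in 54.4% of all genes tested, and its median-of-ratios factor was 0.803 where the others were 0.983 to 1.11. Without OP 1, OP 2 and OR 2 were the highest pair in 15 of the 20 enzymes and in 7.82% of all genes.

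Epithelial, proliferation and adipocyte markers moved in part with this order of mice, and their part in it was not tested. In bulk tissue, fewer cells of a type and less RNA per cell cannot be told apart. The 12 epithelial markers had FPKM above 0 in every mouse, with summed FPKM of 23952, 12154 and 11951 among OP mice and 12763, 25418 and 15659 among OR mice. By this sum OP 2 was the second lowest mouse. Averaged over the 12 with equal weight, the log2(FPKM + 1) value differed from the 6-mouse mean by −0.05, 0.29 and −0.29 among OP mice and −0.28, 0.28 and 0.06 among OR mice. The same quantity over the 20 enzymes was −0.19, 0.39 and −0.28 among OP mice and −0.31, 0.47 and −0.08 among OR mice. By this average OP 2 and OR 2 were highest in both. After median-of-ratios scaling OP 1 came close to them in the epithelial markers, at 0.26 where OP 2 and OR 2 were at 0.30, but not in the enzymes, at 0.11 where they were at 0.40 and 0.49. As a pair they were the highest mice in 2 of the 12 epithelial markers (*Krt8* and *Krt19*). The single markers differed among themselves. *Krt20*, a keratin of mature colonocytes, was higher in OP 1, OP 2 and OR 2 (1300, 937 and 976 FPKM) than in the other mice (403 to 500.01). *Car1*, a carbonic anhydrase of colonocytes and the most abundant of the 12, was lowest in OP 2, with 14584.5, 1054 and 4836 FPKM among OP mice and 5255, 15723 and 6339 among OR mice. *Muc2*, the goblet cell mucin, was highest in OR 3, and *Cdx1*, an intestinal transcription factor, in OR 1.

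Adipocyte markers ran the other way. Summed over 7 markers, FPKM was 145, 22.2 and 140 among OP mice and 372, 74.3 and 236 among OR mice. OP 2 and OR 2 were the lowest 2 mice in 6 of the 7, where they were so in 4.68% of all genes tested. Some of these ranks rest on values near 0, as for *Lep* (0.08 FPKM in OR 2 and 0.17 in OR 1). *Adipoq*, *Plin1*, *Lep*, *Retn* and *Cfd* were listed at 0 in OP 2. Markers of proliferating cells deviated by −0.89, 0.38 and −0.24 among OP mice and by 0.32, 0.31 and 0.13 among OR mice. After median-of-ratios scaling OP 2 (0.40) and OR 2 (0.34) were their highest mice and OR 1 was at 0.19. OP 2 and OR 2 were the highest pair in 2 of the 6 proliferation markers (*Pcna* and *Mcm2*). Between the groups, at an unadjusted limma-trend p below 0.05, 5 of 7 fibroblast markers, 6 of 6 blood endothelial markers and 6 of 6 macrophage markers were lower in OP mice, and 0 of 12 epithelial markers passed in either direction. Of the smooth muscle, enteric neuron and glia, and proliferation markers 0 passed, and 1 of 7 adipocyte and 1 of 4 plasma and B cell markers were lower. Over all genes tested, 0.503% were higher and 3.53% lower at this threshold. None of the markers was called at a q-value below 0.2, and the marker lists were chosen with earlier results of these data known.

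Among the regulators no gene had separate groups. *Srebf2*, which encodes SREBP2 and is itself one of its targets, had an FPKM of 32.81, 53.27 and 40.18 among OP mice and 44.14, 46.63 and 52.34 among OR mice. OP 2 was its highest mouse, but OR 2 was below OR 3. By limma-trend the OP/OR change of *Srebf2* was −0.20 on the log2 scale (standard error 0.19, q = 0.945). *Srebf1* encodes the related factor SREBP1, which mainly drives fatty acid synthesis. Its FPKM was 13.34, 15.77 and 21.45 among OP mice and 19.07, 18.88 and 16.83 among OR mice, and the OP mice enclosed the OR range. Its log2 fold change was −0.13 (standard error 0.19) by limma-trend. The ratio of *Srebf2* to *Srebf1* was 2.57 ± 0.758 in OP and 2.63 ± 0.422 in OR mice (SD, n = 3, exact permutation p = 0.9).

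*Scap* was nearly level, at 23.19, 19.07 and 22.92 FPKM among OP mice and 23.94, 23.72 and 22.34 among OR mice. The fitted change of *Scap* was −0.10 on the log2 scale (standard error 0.14, limma-trend). *Insig1*, the retention factor that is itself induced by SREBP2, varied more than any other of the 26 genes. Its FPKM was 54.08, 29.17 and 12.75 among OP mice and 7.68, 43.05 and 13.79 among OR mice. The highest mouse was 7.04 times the lowest, and OP 1, OP 2 and OR 2 stood above the other 3. For *Insig1* the log2 fold change was 0.67 (standard error 0.67), the largest fitted value among the 26, with an unadjusted p of 0.351 by limma-trend. It was 0.19 without OP 1 and 0.15 without OR 1, and 1.19 without OP 3 and 1.32 without OR 2. *Insig2*, the related retention factor, had 37.35, 19.52 and 27.63 FPKM among OP mice and 23.05, 24.60 and 25.47 among OR mice. OP 1 was highest and OP 2 lowest, so it did not share the order of the enzymes. The ratio of *Insig1* to *Insig2* was 1.45, 1.49 and 0.461 among OP mice and 0.333, 1.75 and 0.541 among OR mice.

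OP 1, OP 2 and OR 2 were the highest 3 mice in 8 of the 26 genes (30.8%), namely *Hmgcs1*, *Mvd*, *Idi1*, *Fdft1*, *Msmo1*, *Hsd17b7*, *Sc5d* and *Insig1*. Over all genes tested the share was 4.37%, and it was 5 of the 12 epithelial markers (*Epcam*, *Krt8*, *Krt20*, *Vil1* and *Slc26a3*). The other 7 epithelial markers, *Car1* among them, had another set of highest mice. The set of OP 1, OP 2 and OR 2 was singled out after the values had been seen, and *Insig1*, which shows it, is among the 8. The count is a description, made only on the values as deposited. Scaling matters for OP 1: with OP 2 it was the highest pair in 3.50% of all genes as deposited and in 11.1% after median-of-ratios scaling.

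Of the transport genes, *Stard4* encodes a carrier that moves cholesterol between membranes inside the cell. It had 37.8 ± 10.7 FPKM in OP and 37.1 ± 0.743 in OR mice (SD, n = 3). The OR mice lay between 36.23 and 37.62, and OP 1 and OP 2 lay on either side of them at 27.19 and 48.61. *Npc1l1* was barely detected, with an FPKM of 0.28, 0.30 and 0.81 among OP mice and 1.07, 0.27 and 0.42 among OR mice. It reached 0.5 in 2 mice, 1 of each group, and was therefore not tested across genes.

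The other genes of sterol and lipid metabolism were described by 5 lists. Of the proteins that move, cut or degrade parts of the SREBP machinery, 13 were tested and 0 passed an unadjusted limma-trend p below 0.05 in either direction, with a median log2 fold change of −0.10. *Rnf139*, a ubiquitin ligase of the endoplasmic reticulum, was the only one whose groups did not overlap, at 5.18, 6.73 and 6.20 FPKM in OP and 8.13, 7.18 and 8.30 in OR mice (log2 fold change −0.34, standard error 0.17). Its unadjusted p was 0.0917 by limma-trend. Every OP mouse lay below every OR mouse in 6.81% of all genes tested, so 1 of 13 is near that share. OP 2 and OR 2 were the highest pair in 0 of the 13. Of 17 genes of fatty acid synthesis, which SREBP1 controls, 0 passed in either direction and the median was −0.28. The lowest p was that of *Mid1ip1*, a regulator of acetyl-CoA carboxylase, with a log2 fold change of −0.45 (standard error 0.20) and an unadjusted p of 0.0548 by limma-trend. OP 2 and OR 2 were the highest pair in 0 of these 17 and the lowest pair in 3 (*Scd1*, *Thrsp* and *Pnpla3*), where over all genes tested the shares were 4.06% and 4.68%.

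Of 5 sterol efflux and LXR genes tested, 0 passed in either direction and the median was −0.12. The list of sterol uptake, transport and esterification held 14 genes. At an unadjusted limma-trend p below 0.05, 0 of the 14 were higher and 1 was lower, beside 0.503% and 3.53% of all genes tested. That gene was *Cav1*, which encodes caveolin-1 and is abundant in endothelium and adipocytes. Its FPKM was 26.86, 23.62 and 25.45 among OP mice and 47.84, 35.31 and 40.09 among OR mice. The groups did not overlap, where 6.81% of all genes tested had every OP mouse below every OR mouse. The log2 fold change of *Cav1* was −0.67 (standard error 0.15), with an unadjusted p of 0.00260 and a q of 0.710 by limma-trend. All 6 blood endothelial, 6 of 6 macrophage, 5 of 7 fibroblast and 1 of 7 adipocyte markers were lower as well, as given above. Of the smooth muscle markers 0 passed. Among OR mice *Cav1* was highest in OR 1. In that mouse the summed endothelial markers were lowest of the OR mice (18.0 FPKM). The smooth muscle and adipocyte sums were highest there (4077 and 372 FPKM). The part of these cell types in the value of *Cav1* was not tested. Of 12 genes of the isoprenoid branch, which uses farnesyl and geranylgeranyl diphosphate for prenylation, dolichol and ubiquinone, 0 passed in either direction and the median was −0.08. OP 2 and OR 2 were the highest pair in 2 of these 12 (*Pggt1b* and *Pdss1*), beside 4.06% of all genes tested. They were so in 0 of the 5 efflux and LXR genes and 0 of the 14 uptake, transport and esterification genes.

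**Figure D4:**
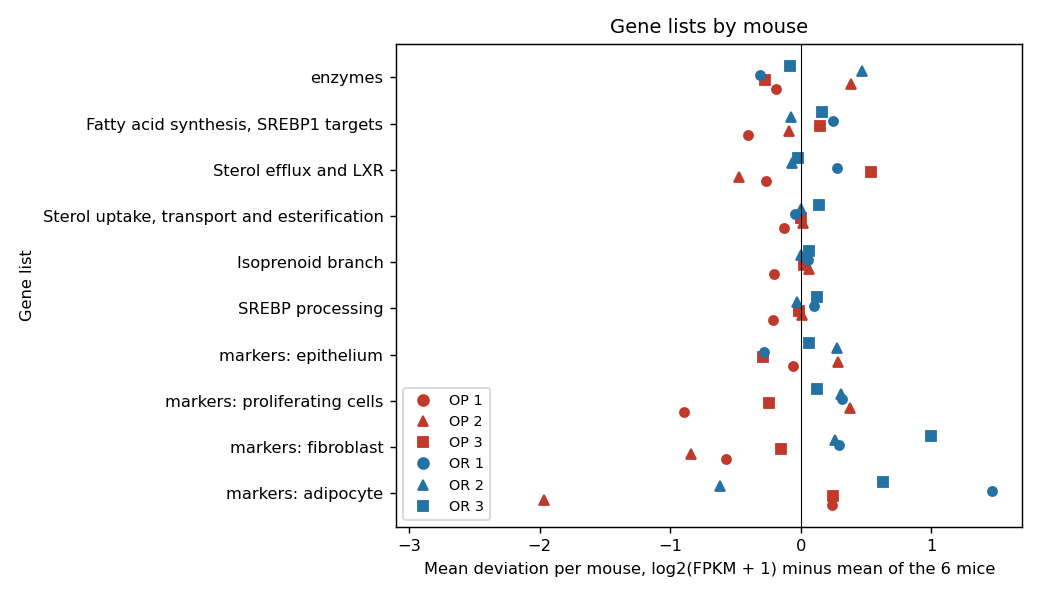
Mean deviation of each gene list in each mouse from the 6-mouse mean, in log2(FPKM + 1) units, for the enzymes, 5 lists of sterol and lipid genes and 4 marker lists (OP red, OR blue; circle, triangle and square for mice 1, 2 and 3; points are spread vertically for legibility). The triangles of OP 2 and OR 2 lie at the right for the enzymes (0.39 and 0.47) and the epithelial markers and at the left for the adipocyte markers (−1.96 and −0.62).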

How the data were processed

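Messenger RNA was enriched from the colon of 3 OP and 3 OR mice, and sequenced from strand-specific libraries on a DNBSEQ instrument. The authors filtered reads with SOAPnuke, mapped them with Bowtie2 to a mouse gene set, quantified genes with RSEM and deposited FPKM values to 2 decimals, 1 column per mouse. The sources disagree on tool versions and on the gene set, and the submitters' processing notes also name HISAT2 and GRCm39. FPKM carries no read totals, so counting error is unknown and DESeq2, which the study used, was not run.

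From the FPKM values, log2(FPKM + 1) of the 13520 genes that reached 0.5 in 3 or more mice was fitted with limma-trend (version 3.58.1 of limma under R 4.3.3). No covariate was used, and q-values (Benjamini-Hochberg) were taken over all genes tested. Single genes were compared by two-sided exact permutation tests over 20 arrangements (SciPy 1.17.1). SDs measure the spread between mice of a group. Standard errors and p-values of limma-trend rest on a variance drawn toward a trend fitted over all genes. Permutation p-values rest on the arrangements of the mice. The fit was also run on simulated data, and its outcome is not reported here. With 3 mice in each group, a gene that was not called may still differ between the groups. All 27 genes are named. Values per mouse were planned for the regulators, *Hmgcs1*, *Idi1*, *Sqle*, *Cyp51* and genes whose groups did not overlap. The genes, the lists and the marker lists were chosen with earlier results of these data known. The order of mice was described after the values had been seen, as were its 3 alternatives (median-of-ratios scaling, TPM scaling and leaving out OP 1).

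The fit was repeated with median-of-ratios scaling, limma without trend, TPM scaling (each mouse to 1000000), no filter, an FPKM minimum of 1 in all 6 mice, the replicate number as a block, sample weights, a pseudocount of 0.1, a q-value of 0.05 and each mouse left out in turn. Promoters were matched by symbol to RefSeq entries on GRCm38.p6, another build than the authors', and no other coordinates were used.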

Additional observations from a re-analysis of the deposited data

How the results depend on the processing

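In every alternative run, 0 of the genes described were called in either direction. Over all genes, the 3 genes called lower became 0 with median-of-ratios scaling, TPM scaling, no filter, an FPKM minimum of 1 in all mice, a pseudocount of 0.1, the replicate block or a q-value of 0.05, became 5 with sample weights, and lay between 0 and 1 with each mouse left out. The gene lower at an unadjusted limma-trend p below 0.05 (*Lbr*) became 0 with the replicate block and between 0 and 2 genes with each mouse left out. Over all genes tested, same-numbered mice did not deviate together (correlations of −0.144, −0.157 and 0.0709). Averaged over the 20 enzymes as deposited, same-numbered mice deviated with the same sign (−0.19 and −0.31, 0.39 and 0.47, −0.28 and −0.08). These enzyme values are deviations from the mean over all mice of both groups. After median-of-ratios scaling OP 1 and OR 1 had opposite signs (0.11 and −0.44). The mice numbered 2 (0.40 and 0.49) and 3 (−0.39 and −0.17) kept the same sign. Over all genes no mouse correlated best with its own number, and the labels give the numbers no shared litter or day. Median-of-ratios scaling moved the median of all genes from −0.10 to 0.01 and that of the genes described from −0.04 to 0.09, with 18 above 0 and 8 below. It reversed the sign of 9 small fold changes: *Acat2* 0.10, *Hmgcs1* 0.023, *Ggps1* 0.13, *Cyp51* 0.022, *Tm7sf2* 0.058, *Nsdhl* 0.075, *Ebp* 0.12, *Scap* 0.031 and *Stard4* 0.12. Sample weights reversed 10: *Acat2* 0.24, *Hmgcs1* 0.22, *Mvk* 0.084, *Sqle* 0.27, *Lss* 0.11, *Cyp51* 0.30, *Nsdhl* 0.16, *Hsd17b7* 0.038, *Insig2* −0.034 and *Stard4* 0.16. Leaving out single mice, the sign also changed for 21 genes, with log2 fold changes from lowest to highest of *Acat2* −0.31 to 0.17, *Cyp51* −0.51 to 0.30, *Ebp* −0.064 to 0.034, *Fdft1* −0.36 to 0.44, *Fdps* −0.40 to 0.37, *Ggps1* −0.17 to 0.12, *Hmgcs1* −0.44 to 0.34, *Hsd17b7* −0.34 to 0.18, *Idi1* −0.41 to 0.41, *Insig2* −0.065 to 0.39, *Lss* −0.56 to 0.081, *Msmo1* −0.31 to 0.63, *Mvd* −0.17 to 0.42, *Mvk* −0.33 to 0.042, *Nsdhl* −0.25 to 0.10, *Pmvk* −0.51 to 0.024, *Sc5d* −0.013 to 0.40, *Sqle* −0.64 to 0.20, *Srebf1* −0.31 to 0.013, *Stard4* −0.21 to 0.20 and *Tm7sf2* −0.23 to 0.039. Depth is unknown, so how far it limits these values cannot be said.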
